A study of Mus musculus with 9 samples.

Results

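Pre-B cells were compared for the genomic positions bound by CTCF and by Rad21, using the confident peak list of each factor on chromosomes 1 to 19. A peak of one factor was joint when it overlapped a peak of the other by 1 bp or more, and otherwise CTCF-only or Rad21-only. The pair of lists held 70976 of the 190262 peaks in the series, 41165 for CTCF and 29811 for Rad21. Rad21 overlapped 26222 CTCF peaks, which is 63.7% of that list, and CTCF overlapped 26241 Rad21 peaks, which is 88.0% of that list. The remaining 14943 CTCF peaks and 3570 Rad21 peaks stood alone. The question was where the genome of a B cell precursor carries cohesin with CTCF, CTCF without cohesin, or cohesin without CTCF.

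The pre-B cells were bone marrow cells of RAG-/-µ+ C57BL/6 mice, which lack RAG recombinase and carry a rearranged IgM transgene. The mice were 6 to 14 wk old and of both sexes, and RAG deficiency was shared by every cell type in the series. Each factor was profiled by ChIP-seq in 1 library, and both libraries were called against the same pre-B input. Without replicates there was no test, and each share is given with an exact Clopper-Pearson interval at 95%, which covers counting error only. Lists used for comparison came from CTCF in RAG1-/- pro-B cells of mice 6 to 14 wk old, cultured for 7 days with IL7, and from Rad21 in DN thymocytes (Rag1-/-) and DP thymocytes (Rag1-/- with a rearranged TCRb transgene) of mice 4 to 8 wk old. As a model, these cells reached the pre-B stage with a transgene in place of a rearrangement of their own, and the number of mice behind each library was not given in the sources used here. Peaks carry no measure of expression, so the pre-B label could not be checked against marker genes.

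CTCF is a zinc-finger protein that binds a long, directional DNA motif and acts at insulators and domain borders. Cohesin is a ring complex, of which Rad21 is a subunit, that extrudes chromatin loops and is halted by CTCF in an orientation-dependent manner. Cohesin is also loaded and found at active promoters and enhancers, so a Rad21 peak away from CTCF is a known class of site. The deposited score of a peak grows with its significance against input and with depth, so scores were used only as ranks within 1 list. A site without a peak was one not called, which does not make it unbound.

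Matches to a short CTCF consensus were found in many but not all CTCF peaks of both classes. With its larger set of CTCF motifs, the paper reports a match in most pre-B CTCF peaks. A peak without a match here may therefore hold another form of the motif. In the following stretches of mm9, printed 5′ to 3′ on the strand of the match, capitals mark the best match to the de novo CTCF consensus of the authors' motif table, which is 12 bases long and was accepted with at most 2 mismatches. The first pair are the matching ones among the 5 highest-ranking joint sites, of which the other 3 had more mismatches, and lie in an intron of Ccdc19 (chr1:174459017-174459076, minus strand) and 6051 bp upstream of Pik3c2b, a lipid kinase gene (chr1:134936142-134936201, minus strand). The other pair comes from the 4 matching ones among the 10 strongest CTCF-only sites, both within 1 kb of a gene start, near Ext2, which encodes a heparan sulphate polymerase (chr2:93662726-93662785, plus strand), and near Fdxacb1 (chr9:50576610-50576669, matched equally well on both strands and printed on the plus strand).
Ccdc19, joint: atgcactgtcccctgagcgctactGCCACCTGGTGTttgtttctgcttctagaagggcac
Pik3c2b, joint: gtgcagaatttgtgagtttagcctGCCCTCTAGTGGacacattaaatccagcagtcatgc
Ext2, CTCF-only: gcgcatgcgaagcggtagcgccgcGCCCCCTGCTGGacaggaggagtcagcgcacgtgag
Fdxacb1, CTCF-only: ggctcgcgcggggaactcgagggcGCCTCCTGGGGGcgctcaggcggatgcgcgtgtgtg

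The 10 highest-scoring Rad21-only peaks held no CTCF consensus match in the central window of 400 bp, and 10.8% of all Rad21-only peaks held one there. The next stretches come from 4 of them, all intergenic. The first is the highest-scoring, near Tbl1xr1 (chr3:21835300-21835399), and the other 3 are shown because they alone among the 10 held an E2A, EBF, PU.1 or RUNX word. The same count, 3 of 10, held for the strongest CTCF-only sites, and 2 of the 5 highest joint sites held such a word, so these stretches illustrate the words and do not set the top sites apart. Those 3 lie at chr17:31890446-31890545 (nearest gene Cryaa), chr13:112726599-112726698 (Map3k1, a kinase of the MAP kinase cascade) and chr8:129371785-129371884 (Tomm20, a mitochondrial import receptor), all on the plus strand. Capitals mark the words searched: the EBF word TCCCNNGGG, the RUNX word TGTGGTT, the E-box CAGCTG that E2A binds and the E-box variant CAGGTG, each on either strand. In the first stretch capitals mark GGGCGG, the word of the general SP/KLF factors, on the other strand. E2A, EBF1 and RUNX1 are transcription factors of early B cell development.
Tbl1xr1, Rad21-only: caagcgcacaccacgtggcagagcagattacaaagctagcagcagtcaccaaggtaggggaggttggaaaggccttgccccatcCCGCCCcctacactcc
Cryaa, Rad21-only: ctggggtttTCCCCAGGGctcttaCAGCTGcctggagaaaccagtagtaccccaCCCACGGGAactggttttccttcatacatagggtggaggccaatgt
Map3k1, Rad21-only: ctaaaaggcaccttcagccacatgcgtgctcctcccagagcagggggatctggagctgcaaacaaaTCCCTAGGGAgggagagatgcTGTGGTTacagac
Tomm20, Rad21-only: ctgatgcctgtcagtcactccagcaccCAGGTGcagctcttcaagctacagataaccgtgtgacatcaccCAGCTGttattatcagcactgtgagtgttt

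Co-occupancy depended steeply on the score of the peak. Of the CTCF peaks in the lowest score decile, 18.0% overlapped Rad21 (interval 16.8 to 19.2), against 63.7% in the fifth decile and 98.2% in the highest (97.8 to 98.6). Thus a strong CTCF peak without a called Rad21 peak was rare, and the highest decile held 73 of them among 4116 peaks. Of the Rad21 peaks in the lowest decile, 59.0% overlapped CTCF (57.2 to 60.8), against 91.8% in the fifth decile and 99.9% in the highest. Only 3 of the 2981 Rad21 peaks in the highest decile lacked CTCF. The difference between the highest and lowest Rad21 decile, 40.9 percentage points, was 24.6 at scores of at least 100. By width, the share of CTCF peaks with Rad21 was 28.1% in the narrowest decile and 87.7% in the widest. For Rad21 the widest peaks were the least often joint, at 80.9% (79.5 to 82.3), against 85.7% in the narrowest decile and 89.97% in the fifth. The plot of both lists by decile shows the 2 curves meeting near 100% at high score and lying furthest apart in the lower deciles.

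**Figure D1:**
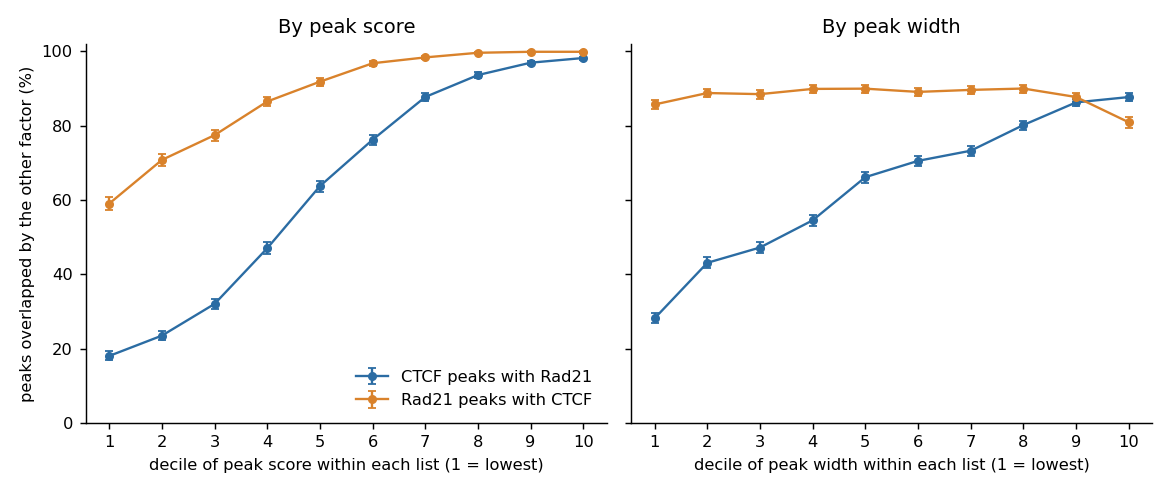
Share of pre-B CTCF peaks overlapped by Rad21 (blue) and of Rad21 peaks overlapped by CTCF (orange), in percent, by decile of peak score (left) and peak width (right) within each list; bars are exact 95% intervals. The CTCF curve by score goes from 18.0% to 98.2%, and the Rad21 curve by width ends at 80.9% in the widest decile.

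Within joint sites the ranks of the factors went together. Of 26480 overlapping pairs, 25553 joined 1 peak of each list, and over these the Spearman correlation of the score ranks was 0.683 and Pearson's r of the ranks was 0.665. These points share the locus, its base composition and mappability, and the input, so the values are a description. Partners of the CTCF peaks in the highest decile had a median Rad21 score above 88.4% of the Rad21 list, and partners of those in the lowest decile a median above 20.2%. The peaks were nearly concentric, with a median midpoint distance of 69 bp (interquartile range 31 to 121 bp). The Rad21 peak lay inside the CTCF peak in 34.2% of the pairs and around it in 18.98%. In 38 pairs, 0.149% of them, less than 50% of the shorter peak was overlapped, so few joint calls rested on touching edges.

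Peak width separated the classes differently for the 2 factors. CTCF peaks with Rad21 had a median width of 691 bp and CTCF-only peaks one of 507 bp. Much of that gap lay between score groups, since within the highest tertile of the CTCF list, which is the upper of 3 equal groups by score, the medians were 779 and 752 bp, and within the middle tertile 624 and 590.5 bp. Rad21-only peaks, by contrast, were wide for their score. In the middle tertile of the Rad21 list the median width was 592 bp for joint peaks (median interval 587 to 596) and 885 bp for Rad21-only peaks (853 to 918). In the highest tertile it was 747 bp for joint peaks and 1607 bp for the 27 Rad21-only peaks. Read the other way, in the lowest Rad21 score tertile 78.5% of the narrowest peaks and 57.6% of the widest overlapped CTCF, whereas in the lowest CTCF tertile 20.3% of the narrowest and 31.5% of the widest overlapped Rad21. Of the Rad21-only peaks in the middle tertile, 37.9% spanned 1 kb or more, against 5.30% of joint peaks there. Over the whole list these differences were hidden, at 620 bp for joint and 637 bp for Rad21-only peaks. That last difference, joint minus Rad21-only, of -17 bp turned to 49 bp when the CTCF list was shortened to the length of the Rad21 list, and it was -112 bp at scores of at least 100.

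**Figure D2:**
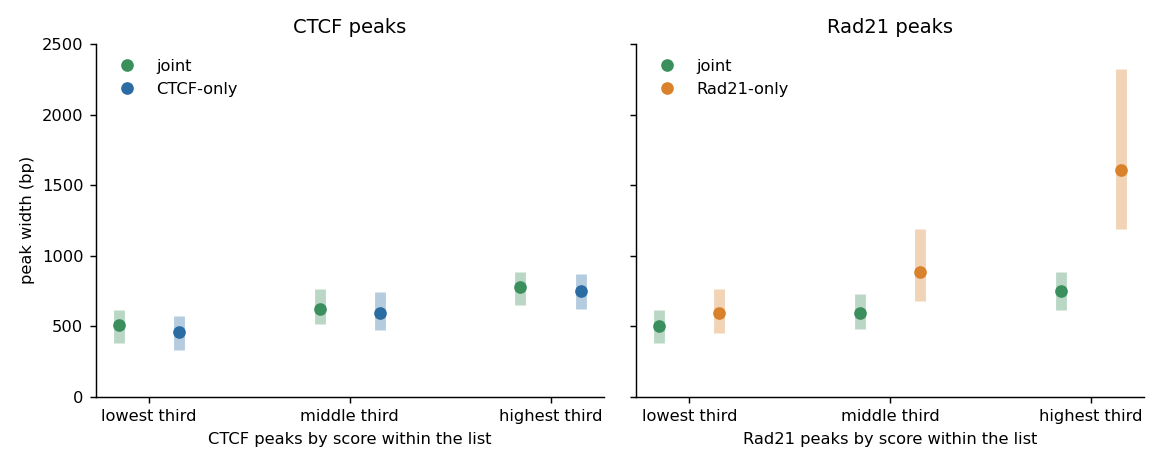
Median peak width in bp (points) and interquartile range (bars) of joint, CTCF-only and Rad21-only peaks by tertile of the score within each list. Rad21-only peaks lie above joint peaks in each tertile, at medians of 594 against 502, 885 against 592 and 1607 against 747 bp.

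The position of Rad21 relative to CTCF followed the direction of the motif. Among the pairs with a consensus match on 1 strand of the CTCF peak, 12402 in all, the Rad21 midpoint lay a median of 34 bp (interval 33 to 36) to the 3′ side of the CTCF midpoint, read along the reverse complement of the consensus as printed above. Rad21 lay on that side in 65.2% of the pairs with unequal midpoints (64.3 to 66.0). Matches on the plus strand gave 35 bp and matches on the minus strand 33 bp. Without regard to strand the median was -1 bp, so the shift appeared once the motif was used to orient the pairs. Measured from the match itself, the Rad21 midpoint was at 20 bp and the CTCF midpoint at -15 bp. In the lowest quintile of CTCF scores the shift was 20.5 bp (408 pairs), and in the highest quintile it was 38 bp (4718 pairs). These shifts are medians over many pairs and are small against the widths of the peaks.

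**Figure D3:**
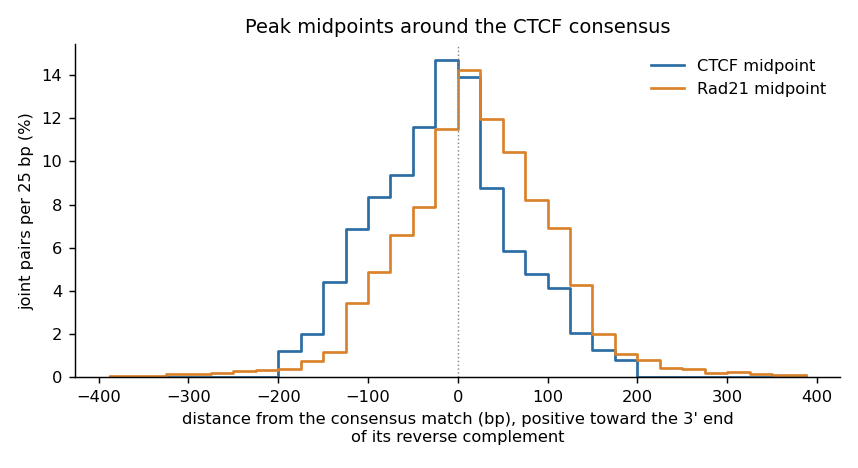
Midpoints of CTCF (blue) and Rad21 (orange) peaks of joint pairs around the consensus match, in percent of 12402 pairs per 25 bp; positive distances point toward the 3′ end of the reverse complement of the consensus, and matches were searched within 200 bp of the CTCF midpoint. The Rad21 curve lies to the right of the CTCF curve, with medians of 20 and -15 bp.

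The place of the sites in the genome differed by class. A peak was called promoter when its midpoint was within 1 kb of the start of a protein-coding transcript in the GENCODE annotation of mm9. This held for 10.5% of joint CTCF peaks (10.1 to 10.8), 14.4% of CTCF-only peaks (13.8 to 14.9) and 28.4% of Rad21-only peaks (26.9 to 29.9). With a window of 5 kb the shares were 25.0%, 30.2% and 37.6%, in the same order but closer in ratio. Intergenic peaks made up 46.4% of joint, 41.1% of CTCF-only and 37.0% of Rad21-only peaks, and introns held 38.2%, 40.3% and 31.3%. The median distance to a start was 15709 bp for joint CTCF peaks, 14009 bp for CTCF-only peaks and 11818.5 bp for Rad21-only peaks. Promoter peaks of the Rad21-only class were centred a median of 28 bp downstream of the start, those of the CTCF-only class 8 bp upstream and joint CTCF peaks 71 bp upstream.

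At equal score, promoter peaks were less often joint than distal ones in most score groups. In the fourth quintile of CTCF scores, of 5 equal groups, 79.4% of promoter peaks (76.3 to 82.2) and 91.8% of distal peaks (91.2 to 92.5) overlapped Rad21. In the lowest quintile of CTCF scores the order was opposite, at 23.9% (21.5 to 26.4) and 20.2% (19.3 to 21.2). In the lowest quintile of Rad21 scores, 49.8% of promoter peaks (46.9 to 52.8) and 68.5% of distal peaks (67.1 to 69.8) overlapped CTCF. In the highest quintile of Rad21 scores all 413 promoter peaks overlapped CTCF. The few strong CTCF peaks without Rad21 were mostly at promoters: of the 73 in the highest CTCF decile 67.1% were promoter peaks, against 14.0% of the joint peaks there.

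The strongest CTCF-only sites were all at gene starts. The 10 highest-scoring ones scored above 98.0% to 99.4% of the CTCF list and were 521 to 1189 bp wide, and all 10 were promoter peaks. The highest was at Got2, a mitochondrial aspartate aminotransferase (chr8:98412079-98412670, centred 72 bp downstream of the start), with the nearest Rad21 peak 25885 bp away. The others included those at Fdxacb1, Gcfc1, Mtmr6 (a phosphoinositide phosphatase), Ext2, 6720456H20Rik, Exd1, Trpc4ap and Sf3b2 (a splicing factor). CTCF was also called at all 10 in IL7-cultured pro-B cells, and Rad21 at 7 of them in DP and at 0 of them in DN thymocytes. Over all CTCF-only peaks at promoters these shares were 87.8%, 40.8% and 2.10%, so the IL7 and DN counts were near those of the class. These shares rose with score. Of the 198 CTCF-only peaks in the highest CTCF quintile, at any place, 100% were in the IL7 list and 50% (42.8 to 57.2) in the DN or DP list. At Gcfc1 and Ext2 a pre-B Rad21 peak lay 570 and 629 bp away. The consensus was matched in 4 of the 10.

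The strongest Rad21-only sites were broad and mostly away from gene starts. The 10 highest-scoring ones were 1124 to 4122 bp wide, 1 was a promoter peak, and none matched the CTCF consensus in the central 400 bp. Over all Rad21-only peaks 28.4% were promoter peaks and 10.8% matched, so the consensus count was near that of the class. The highest lay at chr3:21834287-21836313, 140274 bp upstream of Tbl1xr1, a subunit of a nuclear corepressor complex, and scored above 94.8% of the Rad21 list. Among the 10 it alone was called for Rad21 in DN thymocytes, and the IL7 pro-B CTCF list also held it. The widest, 4122 bp, lay 22721 bp upstream of Ly6e, a membrane-anchored surface protein, and a pair of sites lay 191988 and 127378 bp upstream of Map3k1. The other sites were nearest to Lipc, Gm10293, Tomm20, Zfp608, Cryaa and Herpud1, an endoplasmic reticulum stress gene whose start lay 446 bp from the peak centre. In all, 6 of the 10 were in the CTCF list of the IL7 cultures and 6 in the Rad21 list of DP thymocytes, against 35.8% and 42.4% of all Rad21-only peaks. At Tomm20 a CTCF peak lay 442 bp away.

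The joint sites with the highest ranks in both lists were nearest to Lhpp, Ccdc19, Morn1, Gm16253 and Pik3c2b. The pair in an intron of Lhpp, a phosphatase gene, scored above 99.99% of the CTCF list and 99.96% of the Rad21 list. None of the 5 was a promoter peak, against 10.5% of all joint CTCF peaks. All 5 were called in the IL7-cultured pro-B CTCF list and in both thymocyte Rad21 lists. Over all joint CTCF peaks, 97.8% were in the IL7 list, 33.9% in the DN list and 70.7% in the DP list. In the highest quintile of CTCF scores, 100% of joint CTCF peaks were in the IL7 list and 90.9% in the DN or DP list.

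Taken over all scores the CTCF consensus was most frequent at joint sites, but at matched CTCF score it was not. In the central 400 bp it was matched in 49.7% of joint CTCF peaks (49.0 to 50.3), 37.4% of CTCF-only peaks (36.6 to 38.1) and 10.8% of Rad21-only peaks (9.76 to 11.8). Windows 2000 bp away gave 5.92%, 5.13% and 4.73%, and windows around all 21418 protein-coding starts gave 10.8%. With lists of equal length the Rad21-only share was 16.9%, and with at most 1 mismatch the shares were 17.7%, 10.5% and 0.924%. Promoter peaks of the Rad21-only class matched in 7.80% (6.22 to 9.62), which is below that share of all starts. By quintile of CTCF score, from the lowest up, the shares of joint and CTCF-only peaks were 26.2% and 30.03%, 30.8% and 37.0%, 42.1% and 49.2%, and 55.4% and 58.8%. CTCF-only peaks thus had the higher share in the lower 4 quintiles, with intervals that overlapped in the fourth (54.3 to 56.5 and 55.2 to 62.3). In the highest quintile the shares were 62.3% (61.3 to 63.4) and 56.6% (49.4 to 63.6), whose intervals overlapped too.

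Distal Rad21-only sites more often carried words of lymphoid transcription factors, and also some words of general ones, than their neighbourhood. The E-box CAGCTG was present in 36.4% of distal Rad21-only windows (34.6 to 38.3), against 21.4% of distal joint windows, 18.8% of distal CTCF-only windows and 18.8% of windows 2000 bp from the Rad21-only sites. The PU.1 word GAGGAAG was present in 26.6% (24.9 to 28.4), against 13.7% of joint windows and 14.9% of the neighbouring windows. The EBF word TCCCNNGGG was present in 11.5% (10.3 to 12.8), against 5.61% and 5.44%. The general SP/KLF word GGGCGG was in 11.9% (10.7 to 13.2), against 9.04% of joint windows and 5.71% of the neighbouring windows, and the ETS word CCGGAAG was in 3.91% (3.19 to 4.74), against 2.39% and 1.799%. At least 2 of the words for E2A, EBF, PU.1 and RUNX occurred together in 22.1% of distal Rad21-only windows (20.5 to 23.7), 8.24% of distal joint windows and 7.43% of the neighbouring windows. Base composition was not matched, and the central windows of distal Rad21-only peaks had a median G+C content of 50%, against 47.25% for joint CTCF peaks. A match is a description of the letters and does not show that a factor was bound.

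At promoters the lymphoid words differed less between the classes, while in percentage points the ETS and SP/KLF words differed more between Rad21-only and joint windows than they did distally. The E-box CAGCTG was in 23.2% of Rad21-only promoter windows (20.6 to 25.9) and in 21.9% of windows around all starts. The PU.1 word was in 21.03% (18.6 to 23.7), 16.2% of joint windows and 18.1% of all starts, and the EBF word in 12.8% (10.8 to 15.1), 10.2% and 10.3%. The ETS word CCGGAAG was in 18.4% of Rad21-only promoter windows (16.0 to 20.9), 12.7% of joint ones (11.5 to 14.0) and 13.1% of all starts. The SP/KLF word GGGCGG, typical of CpG-rich promoters, was in 52.0% of Rad21-only, 52.4% of CTCF-only, 43.3% of joint promoter windows and 50.4% of all starts. The CRE word TGACGTCA was in 3.55% of Rad21-only promoter windows (2.501 to 4.89), 1.35% of joint ones (0.951 to 1.85) and 2.40% of all starts, and the NRF1 word GCGCATGCG in 3.26% (2.25 to 4.54), 1.82% (1.36 to 2.395) and 2.27%. Of the other words searched, the distal Rad21-only windows held the E-box variant CAGGTG in 37.2%, the OCT word ATGCAAAT in 3.68% and the AP-1 word TGACTCA in 8.72%, against 28.0%, 2.11% and 6.73% of their neighbours. The YY1 word AAGATGGC was in 3.48%, against 2.35% of the neighbours, and NRF1 in 0.469%, against 0%. CRE (0.665% and 0.587%) and NFY (AGCCAAT, 4.77% and 4.34%) were nearly equal in both, and ZNF143 (ACTACAA) was lower in the peaks, at 3.36% against 4.03%. At all starts YY1, NFY and ZNF143 occurred in 4.51%, 9.26% and 4.08%, and OCT, AP-1 and the E-box variant in 1.73%, 4.82% and 28.0%.

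**Figure D4:**
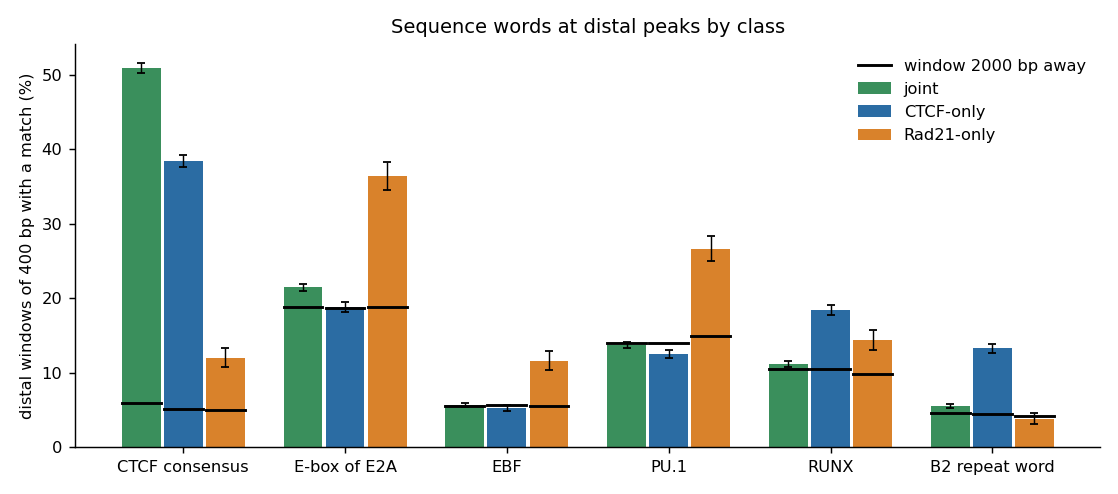
Share of distal peaks with a match in the central 400 bp, in percent, for the CTCF consensus, 4 lymphoid factor words and the B2 repeat word GATGGCTCA; bars are joint CTCF (green), CTCF-only (blue) and Rad21-only (orange) peaks with exact 95% intervals, and black lines give windows 2000 bp away. The E-box, EBF and PU.1 words are highest in Rad21-only peaks, and the RUNX and B2 words are highest in CTCF-only peaks.

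The RUNX word TGTGGTT was most frequent in distal CTCF-only windows, and 793 of the 2348 windows with it held the B2 repeat stretch GATGGCTCA. The word was in 18.3% of distal CTCF-only windows (17.7 to 19.03), 11.2% of distal joint windows (10.8 to 11.6) and 10.4% of windows 2000 bp from the CTCF-only sites. B2 is a short interspersed repeat of rodents whose copies can carry a CTCF motif. One of its stretches is AACCACATG, whose first letters are the RUNX word on the other strand. Another B2 stretch, GATGGCTCA, was in 13.2% of distal CTCF-only windows (12.7 to 13.8), against 4.45% of their neighbours, 5.47% of distal joint windows and 3.79% of distal Rad21-only windows, and it was in 3.73% of CTCF-only promoter windows. AACCACATG was in 9.71% of distal CTCF-only windows and 2.77% of distal joint windows. Both B2 stretches were chosen after the RUNX shares had been seen. The first split was made by GATGGCTCA alone, since AACCACATG holds the RUNX word. In distal CTCF-only windows with GATGGCTCA the RUNX word was present in 46.8% (44.4 to 49.2), and in those without it in 14.01% (13.4 to 14.7). Without GATGGCTCA the word was in 10.06% of distal joint windows (9.66 to 10.46) and in 13.9% of distal Rad21-only windows (12.5 to 15.3). The gap between CTCF-only and joint windows was thus smaller but present without that stretch. No repeat annotation was used, and copies of B2 that lack GATGGCTCA were not set apart.

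One B2 copy of each class shows the arrangement. Both stretches lie on the plus strand of mm9, at chr9:96422083-96422216, intergenic and 43022 bp upstream of Rnf7, and at chr8:122845680-122845813, in an intron and 144442 bp upstream of Fam92b, the nearest start. Capitals mark, in order, GATGGCTCA, AACCACATG and the consensus match with 2 mismatches. Some peaks were left out by chromosome, by overlap with untranslated or noncoding exon sequence, or by length of the stretch. Of the rest, these are the highest-scoring distal peaks of their class with this order and a gap of 32 bp between the last pair of marks. That gap was the most frequent, found in 80 of the 193 CTCF-only peaks and 17 of the 136 joint peaks with both AACCACATG and an oriented consensus match.
Rnf7, CTCF-only: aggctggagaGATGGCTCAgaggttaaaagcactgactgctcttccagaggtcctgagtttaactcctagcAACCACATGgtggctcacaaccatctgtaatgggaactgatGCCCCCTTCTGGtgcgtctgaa
Fam92b, joint: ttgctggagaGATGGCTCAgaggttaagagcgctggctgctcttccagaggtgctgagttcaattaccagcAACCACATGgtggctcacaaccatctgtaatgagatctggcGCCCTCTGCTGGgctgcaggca

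CTCF peaks with the B2 word GATGGCTCA were less often joint, and this was seen at low scores. Of the 3118 such peaks 43.1% overlapped Rad21 (41.4 to 44.9), against 65.4% of the other CTCF peaks (64.9 to 65.9). In the lowest quintile of CTCF scores the shares were 11.7% (9.86 to 13.8) and 22.1% (21.1 to 23.0), and in the second quintile 31.8% and 40.5%. In the third quintile they were 70.7% (66.9 to 74.4) and 69.9% (68.9 to 70.9), and in the highest quintile 97.7% and 97.6%. The word was found in 12.8% of the peaks in the lowest quintile and 2.64% of those in the highest. The authors kept reads with up to 3 places in the genome, and the part of read mapping in these shares was not tested.

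The other libraries of the series took no part in defining the classes. CTCF was called in IL7-cultured pro-B cells at 96.0% of all pre-B CTCF peaks and at 90.4% of all pre-B Rad21 peaks. By class this was 97.8% of joint CTCF peaks, 92.8% of CTCF-only peaks (92.4 to 93.2) and 35.8% of Rad21-only peaks (34.2 to 37.4). At equal CTCF score the joint peaks were not called more often than the CTCF-only peaks, with 78.5% (76.5 to 80.4) against 86.4% (85.6 to 87.2) in the lowest quintile, 94.9% against 96.4% in the second and over 99% of both classes above that. Many sites without a CTCF call in pre-B cells thus had one in the related cells, whose CTCF list was longer, at 69153 peaks. The 1277 Rad21-only peaks called there matched the consensus in 16.1% (14.1 to 18.2), and the 2293 without an IL7 pro-B CTCF peak in 7.81% (6.74 to 8.98). The E-box CAGCTG went the other way among distal sites, at 28.9% (26.1 to 31.9) and 40.9% (38.5 to 43.3). With lists of equal length, where the Rad21-only class is larger, 55.7% of it was called in the IL7 cultures.

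Rad21 of DN or DP thymocytes was called at 53.2% of all pre-B CTCF peaks and at 68.6% of all pre-B Rad21 peaks. It was called at 72.1% of joint CTCF peaks, 19.96% of CTCF-only peaks (19.3 to 20.6) and 42.7% of Rad21-only peaks (41.1 to 44.4). Much of the gap between joint and Rad21-only peaks lay between score groups, though it was present at the higher scores. In the lowest quintile of Rad21 scores 39.97% of joint Rad21 peaks (38.4 to 41.5) and 36.9% of the 2093 Rad21-only peaks (34.9 to 39.04) were called, and in the second 52.1% (50.7 to 53.5) and 49.2% of 1074 (46.1 to 52.2). In the third quintile the shares were 69.8% (68.6 to 71.0) and 55.3% of 338 (49.9 to 60.7), and in the fourth 86.9% and 55.9% of 59 (42.4 to 68.8). For CTCF the gap remained at equal score, with 40.7% of joint and 15.6% of CTCF-only peaks in the lowest CTCF quintile and 90.9% and 50% in the highest. Among Rad21-only peaks, promoter sites were called in 66.4% (63.4 to 69.3) and distal sites in 33.4% (31.5 to 35.2). CTCF-only peaks at promoters were called in 41.1% (39.0 to 43.2) and distal ones in 16.4% (15.8 to 17.1). For joint CTCF peaks the 2 places differed less, at 79.3% and 71.3%. The DN list was short, with 9557 peaks, and held 57 of the 3570 Rad21-only peaks, against 33.9% of the joint Rad21 peaks. The EBF word was in 13.2% of distal Rad21-only peaks not called in DP thymocytes (11.7 to 14.9) and in 8.09% of those called there (6.33 to 10.1), whereas the PU.1 word was in 26.6% of both. The SP/KLF word went the other way, at 9.32% (7.99 to 10.8) of those not called and 17.2% (14.7 to 19.97) of those called, as did the ETS word, at 3.21% and 5.35%. None of the 3 other lists had a peak at 38.7% of Rad21-only sites, 5.99% of CTCF-only sites and 1.48% of joint CTCF sites.

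Genes with a Rad21-only peak at a start included some, but not most, of the listed genes of early B cells. Over all 21418 protein-coding genes, 5.22% had a Rad21-only peak within 1 kb of a start, 13.2% a joint peak and 10.5% a CTCF-only peak. Of 22 genes for components of the pre-B receptor and its signalling, 9 had a Rad21-only peak at a start, 4 a joint peak and 1 a CTCF-only peak. They included Cd79a and Cd79b, the signalling chains of the receptor, the kinase Lyn, the adaptors Bank1 and Dok3, the exchange factor Rasgrp3, and the surface proteins Cd24a and Cd37. Cd24a also had a joint peak at a start, and Dok3 a CTCF-only peak. The Cd79a peak (chr7:25682070-25682694) was centred 18 bp upstream of the start and the Cd79b peak (chr11:106175331-106176335) 10 bp downstream. Scores ranged from above 8.54% of the Rad21 list at Cd37 to above 52.8% at Lyn, so all were of low or middling rank. CTCF was called at 7 of the 9 in IL7-cultured pro-B cells, against 32.6% of all Rad21-only promoter peaks, and Rad21 at 2 of them in DP thymocytes, against 66.3%. The other 13 listed genes had no Rad21-only peak at a start, among them Vpreb1, Vpreb2, Vpreb3 and Igll1, which encode the surrogate light chain and its relative, and the adaptor Blnk, named here after their values were seen.

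B-lineage transcription factors showed Rad21-only peaks both at starts and nearby. Of 22 such genes, 6 had one at a start: Foxo1, Spib, Myb, Ets1, Pou2af1 and Mef2c. The lineage-defining factors Ebf1, Pax5 and Tcf3 (E2A) had none there, with 2, 3 and 0 Rad21-only peaks within 50 kb, and are named after their values were seen. Joint peaks were at 7 starts and CTCF-only peaks at 3. As the nearest gene of a Rad21-only peak within 50 kb, 16 of the 22 were found, against 9.73% of all genes. For joint peaks the count was 21 of 22, against 51.7% of all genes, and for CTCF-only peaks 9 of 22, against 37.0%. The most Rad21-only peaks were assigned to Ets1 with 6 and Mef2c with 5, and Irf4 and Klf2, which had none at a start and are named after their values were seen, had 4 each. No gene list was matched for gene length or for the space around its genes.

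V(D)J recombination genes and the IL7 pathway had Rad21-only peaks at some starts and joint peaks at more. Over all genes the shares at a start were 5.22% for Rad21-only, 13.2% for joint and 10.5% for CTCF-only peaks. Of 20 genes of recombination and end joining, 5 had a Rad21-only peak at a start: Rag2, Lig4, Prkdc, Dclre1c (Artemis) and Hmgb1. Lig4 and Hmgb1 also had a joint peak at a start. Rag1, the other recombinase gene, and Dntt had none and are likewise named after the fact. Rag2 encodes a subunit of the recombinase that is lacking in these mice, and its peak (chr2:101464759-101465284) was centred 119 bp downstream of the start. All 5 were also called for Rad21 in DP thymocytes, as were 66.3% of all Rad21-only promoter peaks, and 1 was in the IL7 pro-B CTCF list. Joint peaks were at 7 of the 20 starts and CTCF-only peaks at 1. Of 19 genes of the IL7 pathway and cell cycle, Il7r, the receptor chain itself, Mcl1, Ccnd2 and Ccnd3 had a Rad21-only peak at a start, 8 had a joint peak and 1 a CTCF-only peak. Ccnd2 was also among the 8 with a joint peak. The Il7r peak (chr15:9459267-9460001) was centred 3 bp upstream of the start and held the RUNX word.

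The remaining lists are set against the shares of all genes, which were 5.22% for Rad21-only, 13.2% for joint and 10.5% for CTCF-only peaks at a start. Among 19 T-lineage genes, Cd2 alone had one, which is 5.26%, and 0 had a joint or CTCF-only peak there. Among 24 genes of other tissues, 0 had a Rad21-only peak at a start or as the nearest gene, while 1 had a joint and 3 a CTCF-only peak at a start. Of 54 ribosomal protein genes, which are active in nearly all cells, 8 (14.8%) had a Rad21-only peak at a start (Rpl9, Rpl11, Rpl13, Rpl18, Rpl19, Rpl28, Rps27 and Rps28), 19 (35.2%) a joint and 12 (22.2%) a CTCF-only peak, so all 3 classes were above their all-gene shares. Rpl11 and Rpl18 had a joint peak at a start as well as a Rad21-only peak. Of 15 genes for cohesin, its loaders and CTCF, Ctcf and Cdca5 (sororin, which stabilises cohesin on DNA) had a Rad21-only peak (13.3%), 5 a joint peak and 1 a CTCF-only peak. None of the 35 listed genes with a Rad21-only peak at a start had the CTCF consensus in the central window of that peak. Over all Rad21-only promoter peaks the share was also low, at 7.80%. Of the 35, 22 (62.9%) were called for Rad21 in DP thymocytes, against 66.3% of all Rad21-only promoter peaks.

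**Figure D5:**
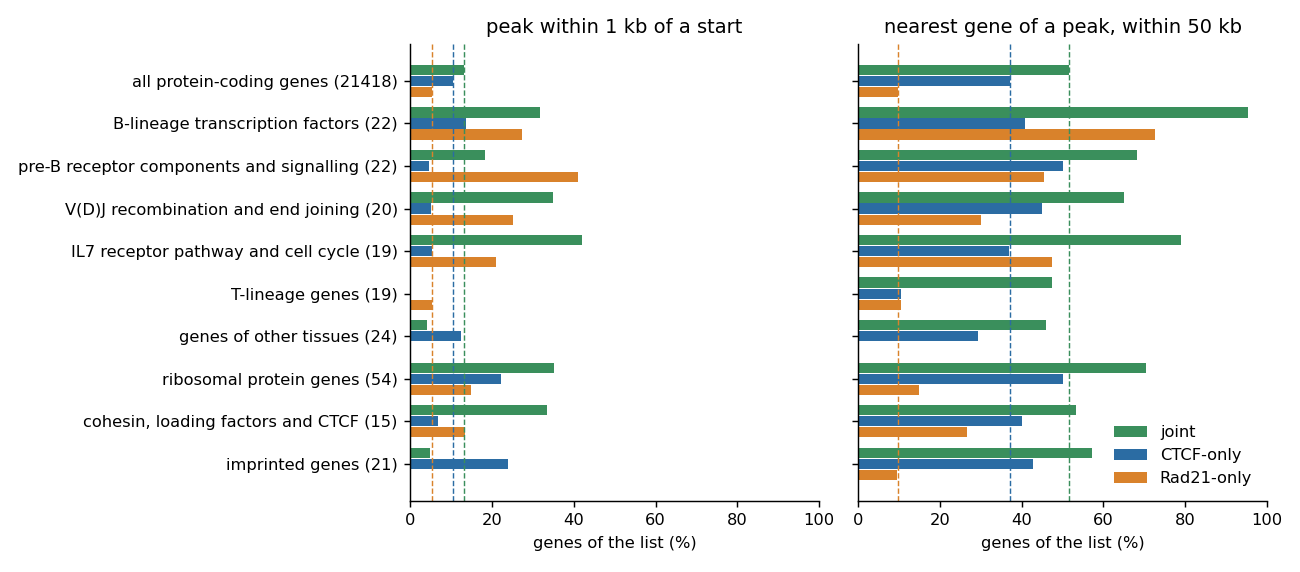
Share of the genes of each list, in percent, with a joint (green), CTCF-only (blue) or Rad21-only (orange) peak within 1 kb of a start (left) and as the nearest protein-coding gene within 50 kb (right); the number of genes is in parentheses and dashed lines mark all protein-coding genes. Rad21-only peaks are at 9 of 22 starts of pre-B receptor genes and at 0 of 24 starts of genes of other tissues, against 5.22% of all genes.

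The genes with the most sites differed by class. Rad21-only peaks were most numerous around Cxcr4, the chemokine receptor that holds B cell precursors in the bone marrow, with 11 sites between chr1:130442654 and chr1:130533528. They reached from -44317 bp (upstream of the start) to 45906 bp (downstream), were 559 to 2283 bp wide and scored above 1.20% to 55.2% of the Rad21 list. CTCF had 3 peaks assigned to Cxcr4. Of the 11 sites, 0 matched the consensus, 1 was in the IL7 pro-B CTCF list and 3 were in the DP Rad21 list. Over all Rad21-only peaks these shares were 10.8%, 35.8% and 42.4%. Rreb1, a zinc-finger transcription factor gene, and Sik1, a salt-inducible kinase gene, had 10 Rad21-only sites each, of which 6 and 5 were called in DP thymocytes. Sik1 had no CTCF peak assigned to it at all. Neighbouring sites at one gene may be parts of 1 broad region, since several lay close together.

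For the other classes the leading genes were different ones. Arhgef10l, Prex1 and Sept9, of which the last encodes a septin, had 12 joint sites each. Zfp64 had 10 CTCF-only sites, and Fry and Mtus2 had 9 each. All 9 leading genes also had CTCF or Rad21 peaks of another class except Sik1. Of the 1119 genes with a Rad21-only peak at a start, 119 also had a joint peak (10.6% of the Rad21-only genes and 4.22% of the joint genes). That is near the 13.2% of all genes with a joint peak at a start. A CTCF-only peak was at a start of 61 of the 1119 (5.45%), against 10.5% of all genes.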

How the data were processed

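The members and gene lists were chosen with earlier results of these data known. Per the paper's methods, adapters and duplicates were taken out, Bowtie placed the reads on mm9 (up to 3 places per read were kept), and MACS called each library against its input, with confident peaks at an FDR of 1% or less. The submitters' processing notes name Bowtie 0.12.9 and MACS 1.4.2, and the methods give another Bowtie version. The deposited score of each peak was the authors' value against input, not comparable between libraries, and no read totals were used, so depth is unknown.

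Overlaps, ranks within a list, exact intervals at 95%, the nearest protein-coding start in GENCODE M1 (mm9) and matches in the central 400 bp were computed with Python 3.11.15, numpy 2.4.6 and scipy 1.17.1, and tested on simulated data. Both B2 stretches and the splits by them and by other libraries were chosen after word shares had been seen. Matches allowed at most 2 mismatches of the consensus and 0 of the words, on both strands. CAGGTG and CAGCTG were counted apart, and AACCACATG holds the reverse complement of TGTGGTT. Sequences are from the NCBIM37 (mm9) genome. Named genes were the nearest genes of the 10 highest-scoring Rad21-only and CTCF-only peaks and of the 5 highest joint pairs, listed genes with a Rad21-only peak at a start, and the 3 genes per class with most sites within 50 kb. Alternatives were scores of at least 100, lists of equal length, 50% overlap of the shorter peak, a gap of up to 500 bp, chromosome X added, a promoter window of 5 kb, 1 mismatch, and the whole peak. Some items chosen by the rule are not reported here.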

Additional observations from a re-analysis of the deposited data

How the results depend on the processing

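Of 85 recomputed values, 41 stayed within the interval of the reported value, and 1 changed direction. At scores of at least 100, CTCF peaks with Rad21 were 59.3% and Rad21 peaks with CTCF 93.1%. The differences between highest and lowest decile were then 83.7 and 24.6 percentage points, against 80.2 and 40.9, and the width differences, joint minus single, 158 and -112 bp for CTCF and Rad21. Promoter shares were 9.31% for joint and 26.5% for Rad21-only peaks, consensus shares were 52.6%, 41.7% and 13.2% for joint, CTCF-only and Rad21-only peaks, calls in the other cells were 31.8% (Rad21-only, IL7 pro-B CTCF) and 17.0% (CTCF-only, thymocyte Rad21), and the offset was 37 bp.

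With lists of equal length, in which the weakest CTCF peaks are left out and more Rad21 peaks stand alone by construction, the overlaps were 79.0% and 79.3%, the decile differences 58.6 and 61.1 points, and the width differences 126 bp and, reversed, 49 bp. Promoter shares were 9.93%, 15.3% and 22.8%, consensus shares 52.4%, 46.0% and 16.9%, and calls in the other cells 55.7% and 25.2%. A gap of up to 500 bp gave overlaps of 65.0% and 88.9%, decile differences of 77.3 and 38.4 points, and calls in the other cells of 40.1% and 21.2%. A promoter window of 5 kb gave 25.0%, 30.2% and 37.6%. With 1 mismatch the consensus shares were 17.7%, 10.5% and 0.924%, and the offset was 38 bp, and with the whole peak scanned the shares were 53.8%, 39.0% and 15.1%. The order of the classes in promoter and consensus shares was kept under each alternative. No value stated here left its interval with 50% overlap or with chromosome X.

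No paired analysis was possible because each group held 1 library. Since depth is unknown, a missing partner can be a site just under the calling limit, and most CTCF-only and Rad21-only peaks had low scores. The cause of each change was not tested, apart from the construction named for lists of equal length.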

Other observations

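Among 21 imprinted genes, which are expressed from 1 parental allele, 5 had a CTCF-only peak at a start (Gnas, Grb10, Peg10, Sgce and Mest, named after their values were seen), 1 had a joint peak and 0 had a Rad21-only peak there. Over all genes 10.5% had a CTCF-only peak at a start, 13.2% a joint peak and 5.22% a Rad21-only peak. Peg10 and Sgce lie next to each other on chromosome 6 in opposite directions, so their starts are not separate cases.

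CTCF-only peaks lay a median of 13228 bp from the nearest Rad21 peak, and 3.61% of them were within 500 bp of one. Rad21-only peaks lay a median of 7707.5 bp from the nearest CTCF peak, and 7.59% were within 500 bp. By chromosome, the share of CTCF peaks with Rad21 was lowest on chromosome 4, at 59.6%, and highest on chromosome 19, at 67.9%. The share of Rad21 peaks with CTCF was lowest on chromosome 13, at 83.8%, and highest on chromosome 6, at 90.8%.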
